A study of Mus musculus with 11 samples.

Results

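The genes examined here encode the enzymes and regulators of fatty acid synthesis in the quadriceps, the extensor muscle on the front of the thigh, of aged mice. They are a list of 10 gene symbols, each matched to 1 Ensembl identifier of the count table, and make up 10 of its 53465 genes. All 10 passed the filter on low counts. The animals carry the strain name C57L/6JRj in the labels. They received either the solvent DMSO or myriocin, a fungal inhibitor of serine palmitoyltransferase, the entry enzyme of sphingolipid synthesis. Treatment began at an age of 18 months in both groups and lasted 10 weeks. RNA was sequenced in 5 DMSO libraries and 6 myriocin libraries, which are named below by group and replicate number. The sources used here do not give the dose, the route or the sex of the mice. Whether libraries came from different animals is not stated in the labels, so the p-values cover the spread among these libraries, which may be technical.

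Fatty acid synthesis turns citrate exported from mitochondria into palmitate in the cytosol, using acetyl-CoA, malonyl-CoA and NADPH, and palmitate is then elongated and desaturated. The pathway is most active in liver, fat and lactating mammary gland, and skeletal muscle is better known for burning fatty acids than for making them. Its genes are switched on by SREBP-1, which responds to insulin, and by ChREBP, which responds to glucose.

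The sequences just before the transcription starts of the genes for ATP citrate lyase (Acly), fatty acid synthase (Fasn) and ChREBP (Mlxipl) are printed because the levels of Acly and Fasn varied together across libraries while that of Mlxipl did not move with them. They are 250 bases long, read 5′ to 3′ on the strand of the gene, and come from RefSeq's promoter table on GRCm38.p6. The Fasn window is chr11:120824548-120824797 on the minus strand, that of Acly is chr11:100528001-100528250 on the minus strand, and that of Mlxipl is chr5:135089640-135089889 on the plus strand. Capitals mark 3 short motifs on either strand, the CCAAT box (CCAAT), the GC box (GGGCGG) and the E-box (CACGTG).
Fasn: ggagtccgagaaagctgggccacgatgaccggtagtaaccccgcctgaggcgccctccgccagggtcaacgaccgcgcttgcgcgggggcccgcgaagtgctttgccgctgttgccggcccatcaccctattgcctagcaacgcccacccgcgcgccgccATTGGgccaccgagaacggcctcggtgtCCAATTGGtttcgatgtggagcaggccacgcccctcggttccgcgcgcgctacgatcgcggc
Acly: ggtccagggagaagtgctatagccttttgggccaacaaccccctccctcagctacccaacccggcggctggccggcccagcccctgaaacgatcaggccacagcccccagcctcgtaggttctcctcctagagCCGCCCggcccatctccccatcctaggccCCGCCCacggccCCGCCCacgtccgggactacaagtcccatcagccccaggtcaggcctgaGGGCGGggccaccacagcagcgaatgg
Mlxipl: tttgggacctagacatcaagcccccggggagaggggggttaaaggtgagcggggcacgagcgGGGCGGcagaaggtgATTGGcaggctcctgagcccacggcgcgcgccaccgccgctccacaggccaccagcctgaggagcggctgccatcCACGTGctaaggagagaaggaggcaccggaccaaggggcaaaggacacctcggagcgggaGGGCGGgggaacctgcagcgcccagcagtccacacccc
The Fasn window held 3 CCAAT boxes and no GC box, and the last 2 of these boxes overlap on opposite strands. The Acly window held 4 GC boxes and no CCAAT box. The Mlxipl window held 1 CCAAT box, 2 GC boxes and 1 E-box. The table gave entries for 8 of the 10 genes, with Scd1 and Scd2 not among them. Of all 32851 windows of this length, 33.8% held a CCAAT box, 32.7% a GC box and 6.02% an E-box. A sterol regulatory element written as TCACNCCAC was in 1.05% of all windows and in none of the 8, of which the Acaca window precedes an internal start, 65766 bp from the annotated start of the gene. Only this spelling of the element was searched, and sites that differ from it would be missed. The motif matches describe letters and do not show that a factor binds there.

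The tissue label was checked against 8 muscle fibre genes, among them Ckm and Acta1, which together gave 133580 to 187230 CPM (counts scaled to the size of the library) in each library. Reads counted in genes numbered 22241131 to 23163721 in a library, and a floor of 3 counts was worth 0.123 to 0.138 CPM. Of the 11 libraries, DMSO replicate 2 stood apart from the rest. Its 10 white adipocyte markers summed to 2969 CPM, against 697 to 1251 CPM in the other DMSO libraries and 806 to 1680 CPM with myriocin, and its 7 neutrophil markers summed to 821 CPM, against at most 120 CPM elsewhere. Much of the adipocyte sum was Car3, at 1240 CPM in DMSO replicate 2 and 374 to 1010 CPM in the others. Whether muscle fibres also make Car3 was not tested. In DMSO replicate 2, Ucp1, the uncoupling protein of brown fat, was at 45.7 CPM, and in the others at 0.781 CPM or less. Liver transcripts were raised in DMSO replicates 4 and 5 and in myriocin replicate 4, where 8 hepatocyte markers reached 116, 102 and 127 CPM. Many results that rest on DMSO replicate 2 are given with and without it. The correlations with the nearest genes outside the list are given singly for all libraries. Without DMSO replicate 2 and myriocin replicate 4 they are mostly given as a range. In bulk tissue, fewer cells of a type and less RNA per cell cannot be told apart.

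The data show 2 kinds of gene. Fasn, Acaca, Acly, Scd1, Elovl6 and Thrsp varied widely between libraries and did so together, and each was highest in DMSO replicate 2. Srebf1, Mlxipl, Scd2 and Me1 varied less, by 1.36-fold to 1.80-fold between the lowest and the highest library. With all libraries, no gene of the list passed the threshold for a difference between myriocin and DMSO. Without DMSO replicate 2, the 6 variable genes were each higher with myriocin, by 0.76 to 1.74 on the log2 scale, at unadjusted p-values that do not survive adjustment over all genes. This split into 6 and 4 was chosen after the values were seen. Statements below that set myriocin libraries against the DMSO libraries other than replicate 2 leave out the highest library of the gene. The share of all genes placed in this way was not counted.

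Per kilobase of exon, the mean level over the 11 libraries was highest for Scd1, at 74.8 CPM per kb, and for Me1, at 68.0 CPM per kb. Fasn followed at 21.7 CPM per kb, then Srebf1 at 17.3, Thrsp at 14.7 and Mlxipl at 13.4 CPM per kb. Acly stood at 9.05, Scd2 at 5.09, Acaca at 2.34 and Elovl6 at 0.999 CPM per kb. Neighbours in this order overlap where a variable gene is involved, since Fasn alone ran from 2.45 to 80.0 CPM per kb. Scd1, at 20.04 to 144 CPM per kb, was above Scd2, at 3.84 to 6.91 CPM per kb, in every library. The spread between libraries within a group, as edgeR's biological coefficient of variation, was 92.0% for Elovl6, 88.2% for Fasn, 67.8% for Acly, 66.1% for Thrsp, 55.0% for Acaca and 52.3% for Scd1. For these 6 genes it lay at the 98.4th to 99.6th percentile of all genes tested. It was 18.0% for Scd2, 16.3% for Srebf1, 11.8% for Me1 and 10.5% for Mlxipl, against a median of 13.6% over all genes. Scd2 and Srebf1 thus lay at the 69.8th and 63.7th percentile, and Me1 and Mlxipl at the 36.4th and 22.9th. Among genes of like abundance, Srebf1 and Scd2 were at the 92.9th and 91.9th percentile.

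**Figure D1:**
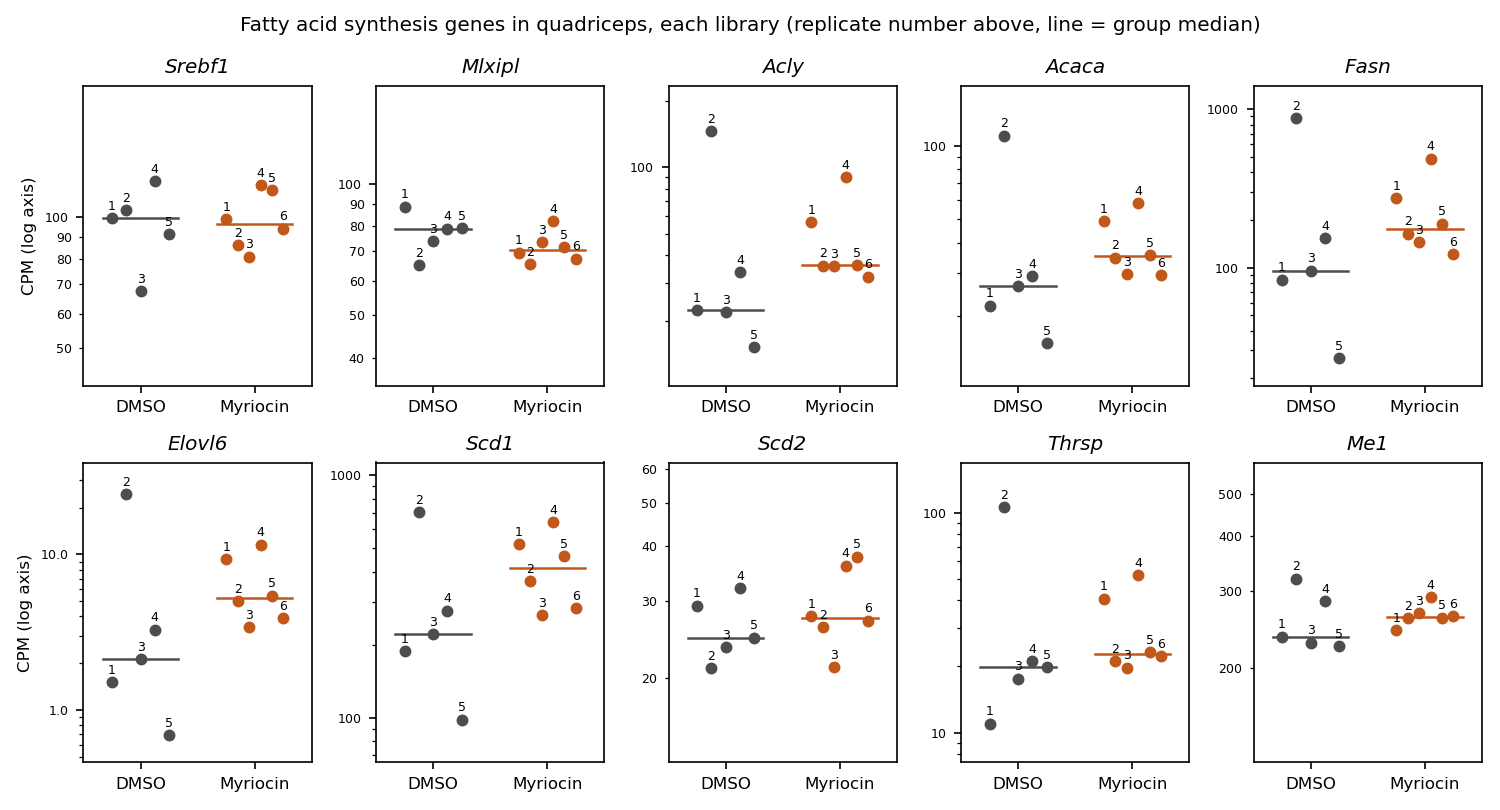
Level of each of the 10 genes in CPM (log axis) in the 5 DMSO (grey) and 6 myriocin (orange) libraries, with the replicate number above each point and a line at the group median. DMSO replicate 2 is the highest library for Acly, Acaca, Fasn, Elovl6, Scd1, Thrsp and Me1, and it is the lowest for Mlxipl and Scd2.

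Srebf1 (ENSMUSG00000020538, chr11:60199089-60222581 on GRCm38) encodes SREBP-1, a membrane-bound transcription factor that is released by cleavage and activates lipogenic genes. Its level was 99.3, 103, 67.6, 121 and 91.1 CPM in DMSO replicates 1 to 5, and 98.5, 86.0, 80.9, 118, 115 and 93.9 CPM in myriocin replicates 1 to 6. The groups overlap almost fully, and both the lowest and the highest library were DMSO. Myriocin minus DMSO, the difference on the log2 scale (log2 fold change) was 0.04 with a standard error (SE) of 0.14 and an adjusted p of 0.982 by edgeR's quasi-likelihood test.

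Mlxipl (ENSMUSG00000005373, chr5:135089890-135138382) encodes ChREBP, the carbohydrate response element binding protein. It stood at 88.6, 65.1, 73.8, 79.0 and 79.0 CPM with DMSO, and at 69.6, 65.5, 73.5, 82.1, 71.5 and 67.4 CPM with myriocin. DMSO replicate 2, the highest library for most genes of the list, was the lowest for Mlxipl. Its log2 fold change was -0.11 (SE 0.08, edgeR adjusted p = 0.936), and 1 of 6 myriocin libraries lay above the DMSO median. Without DMSO replicate 2 the log2 fold change of Mlxipl was -0.16 (SE 0.08, edgeR adjusted p = 0.958). Of its exon bases, 4.24% are shared with the opposite-strand gene Gm43500, and the sources used here do not give the strand setting of the counting. The log2 ratio of Mlxipl to Srebf1 was -0.30 ± 0.33 (SD, n = 5) in the DMSO group and -0.45 ± 0.18 (SD, n = 6) in the myriocin group, a difference of -0.15 in an exact permutation test with p = 0.368, 2-sided.

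Acly (ENSMUSG00000020917, chr11:100476353-100528000), ATP citrate lyase, splits citrate into acetyl-CoA and oxaloacetate. Its level was 22.4, 146, 21.96, 33.5 and 15.3 CPM with DMSO, and 56.4, 35.7, 35.7, 90.02, 36.1 and 31.9 CPM with myriocin. DMSO replicate 2 was above every other library, and 5 of 6 myriocin libraries were above the 4 other DMSO libraries. Between groups, the log2 fold change was -0.01 (SE 0.62, edgeR adjusted p = 0.999), and without DMSO replicate 2 it was 1.03 (SE 0.35, edgeR adjusted p = 0.958).

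Acaca (ENSMUSG00000020532, chr11:84129672-84401651), acetyl-CoA carboxylase 1, makes malonyl-CoA, the committed step of the pathway. It stood at 22.1, 110, 26.4, 29.2 and 15.5 CPM with DMSO, and at 49.0, 34.7, 29.7, 58.0, 35.6 and 29.4 CPM with myriocin. All 6 myriocin libraries lay above the 4 DMSO libraries other than replicate 2, the lowest of them at 29.4 CPM against 29.2 CPM. This sets aside the highest library, and the share of all genes with such a separation was not counted. The log2 fold change was -0.05 (SE 0.49, edgeR adjusted p = 0.994), and without DMSO replicate 2 it was 0.76 (SE 0.24, edgeR adjusted p = 0.958).

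Fasn (ENSMUSG00000025153, chr11:120805846-120824547) encodes fatty acid synthase, the multifunctional enzyme that builds palmitate. Its level was 83.9, 876, 95.5, 154 and 26.9 CPM with DMSO, and 274, 164, 145, 488, 189 and 122 CPM with myriocin. The highest library exceeded the lowest 32.6-fold, and 18.2-fold when DMSO replicate 2 was left out. DMSO replicate 5 was the lowest library, and 4 of 6 myriocin libraries were above the 4 DMSO libraries other than replicate 2. Its log2 fold change was -0.10 (SE 0.82, 95% interval -1.96 to 1.75, edgeR adjusted p = 0.992). Without DMSO replicate 2 it was 1.36 (SE 0.55, 95% interval 0.09 to 2.62, edgeR adjusted p = 0.958).

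Elovl6 (ENSMUSG00000041220, chr3:129532355-129638495) encodes the elongase that extends palmitate to stearate. Per length it was the least abundant of the list, and it stood at 1.51, 24.4, 2.13, 3.29 and 0.692 CPM with DMSO, and at 9.31, 5.03, 3.40, 11.6, 5.43 and 3.91 CPM with myriocin. All 6 myriocin libraries were above the 4 DMSO libraries other than replicate 2, and the lowest library, DMSO replicate 5, was still above the floor. That separation sets aside the highest library, and its share over all genes was not counted. Between groups, the log2 fold change was -0.01 (SE 0.82, edgeR adjusted p = 0.999), and without DMSO replicate 2 it was 1.74 (SE 0.47, edgeR adjusted p = 0.938).

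Scd1 (ENSMUSG00000037071, chr19:44394455-44407879), a stearoyl-CoA desaturase, puts a double bond into stearate and palmitate. Its level was 188, 705, 221, 276 and 98.0 CPM with DMSO, and 520, 365, 264, 641, 463 and 283 CPM with myriocin. Here DMSO replicate 2 was close to myriocin replicate 4, and 5 of 6 myriocin libraries were above the 4 other DMSO libraries. The log2 fold change was 0.51 (SE 0.47, edgeR adjusted p = 0.940), the largest of the list with all libraries, and without DMSO replicate 2 it was 1.11 (SE 0.34, edgeR adjusted p = 0.958).

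Scd2 (ENSMUSG00000025203, chr19:44293674-44306864) encodes a close paralog of Scd1 that is the main form in brain. Reads that fit both copies equally may have been set aside by the counting. Scd2 stood at 29.2, 21.0, 23.4, 32.0 and 24.7 CPM with DMSO, and at 27.7, 26.0, 21.2, 36.1, 37.8 and 27.0 CPM with myriocin. Unlike Scd1, it was at its lowest in DMSO replicate 2, and its groups overlap with a log2 fold change of 0.17 (SE 0.15, edgeR adjusted p = 0.936). The log2 ratio of Scd1 to Scd2 within a library, which needs no scaling, was 3.22 ± 1.14 (SD, n = 5) in the DMSO group and 3.81 ± 0.33 (SD, n = 6) in the myriocin group. The difference of 0.59 had p = 0.264 in a 2-sided exact permutation test. Without DMSO replicate 2 the difference was 1.05 and the groups did not overlap. The exact permutation p was then 0.00952, the smallest that 4 against 6 libraries allow. DMSO replicate 2 had the highest log2 ratio of all, at 5.07, so leaving it out by itself widens the difference. This p therefore cannot count as a test apart from that choice. Without DMSO replicates 4 and 5 and myriocin replicate 4, where liver transcripts were raised, the difference was 0.074.

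Thrsp (ENSMUSG00000035686, chr7:97412938-97417730) encodes Spot 14, a small nuclear protein induced by thyroid hormone and found with lipogenic enzymes in liver and fat. It stood at 10.98, 106, 17.6, 21.1 and 19.9 CPM with DMSO, and at 40.6, 21.2, 19.8, 52.0, 23.2 and 22.3 CPM with myriocin. DMSO replicate 2 was again the highest, and DMSO replicate 5, the lowest library for the variable enzymes, was not low for Thrsp. Its log2 fold change was -0.24 (SE 0.60, edgeR adjusted p = 0.974), and without DMSO replicate 2 it was 0.78 (SE 0.33, edgeR adjusted p = 0.958).

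Me1 (ENSMUSG00000032418, chr9:86581371-86695953), the cytosolic malic enzyme, supplies NADPH. Its level was 236, 320, 229, 284 and 224 CPM with DMSO, and 244, 260, 267, 290, 261 and 263 CPM with myriocin. The highest library, DMSO replicate 2, exceeded the lowest only 1.43-fold, and all 6 myriocin libraries lay above the DMSO median of 236 CPM. Between groups, the log2 fold change was 0.03 (SE 0.09, edgeR adjusted p = 0.981).

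Of the 10 genes, 0 passed an adjusted p of 0.05, as did 0% of the 14117 genes tested with edgeR, for which the smallest adjusted p was 0.513. Before adjustment, 0 of 10 had a p under 0.05, against 4.68% of all genes tested in either direction and 2.33% in the higher direction, and 0 of 10 had groups that did not overlap, against 0.361%. The log2 fold change was positive for 4 and negative for 6, where 53.7% of all genes tested were negative. Its median was -0.01 over the 10 genes and -0.01 over all genes. The 95% intervals of Fasn and Elovl6 reached beyond 1.7 log2 units on both sides, so a difference of several-fold was not detectable in these 2 genes with all libraries. Without the 3 libraries rich in albumin transcripts, which leaves 3 DMSO libraries with replicate 2 among them, Fasn was at -0.97, Thrsp at -0.82, Elovl6 at -0.795, Acly at -0.70, Acaca at -0.56 and Scd1 at 0.03, and no adjusted p of the list passed with edgeR.

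Without DMSO replicate 2, 9 of the 10 genes had a positive log2 fold change, against 48.7% of the 14226 genes then tested. Before adjustment, 6 of 10 were higher at a p under 0.05 with edgeR, against 2.48% of all genes in that direction and 4.99% in either. These 6 are the variable genes, each highest in the library left out, so leaving it out by itself raises their log2 fold changes. They also vary together, so they do not count as 6 separate results beside a share of single genes. No gene of the list passed after adjustment, with adjusted p-values from 0.938 to 0.995, and 0% of all genes did. White adipocyte markers moved the same way in these 10 libraries: 10 of 10 had a positive log2 fold change, with a median of 0.30, and 1 of 10, Car3, had a p under 0.05 before adjustment. Over all 11 libraries Car3 was the most abundant of these markers, at a mean of 688 CPM with DMSO and 801 CPM with myriocin. The cells that make it were not tested. The 3 neutrophil markers tested were also positive, with a median of 1.64, and their part in the result was not tested. The adipocyte markers were entered as a covariate, by adding the mean log2 CPM of the 10 white adipocyte markers to the edgeR fit over all 11 libraries. With this covariate, 9 of 10 genes had a positive log2 fold change, against 47.4% of all genes, and 5 of 10 were higher at an unadjusted p under 0.05, against 2.55% of all genes in that direction and 5.22% in either. These were Elovl6 at 0.98 (SE 0.19), Scd1 at 0.77 (SE 0.14), Fasn at 0.75 (SE 0.31), Acly at 0.51 (SE 0.19) and Acaca at 0.35 (SE 0.11) by edgeR. Their adjusted p-values were 0.411 to 0.901, so none passed. Thrsp was at 0.22 (SE 0.20) with the covariate. The marker mean was 6.56 in DMSO replicate 2 and at most 5.55 elsewhere, so this fit is not independent of that library. The genes vary together here too, and do not count as separate results. With the covariate and without DMSO replicate 2, 4 of 10 were higher at an unadjusted edgeR p under 0.05. Of the 14226 genes, 901 had such a p in either direction, and 0 of the 10 passed after adjustment.

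**Figure D2:**
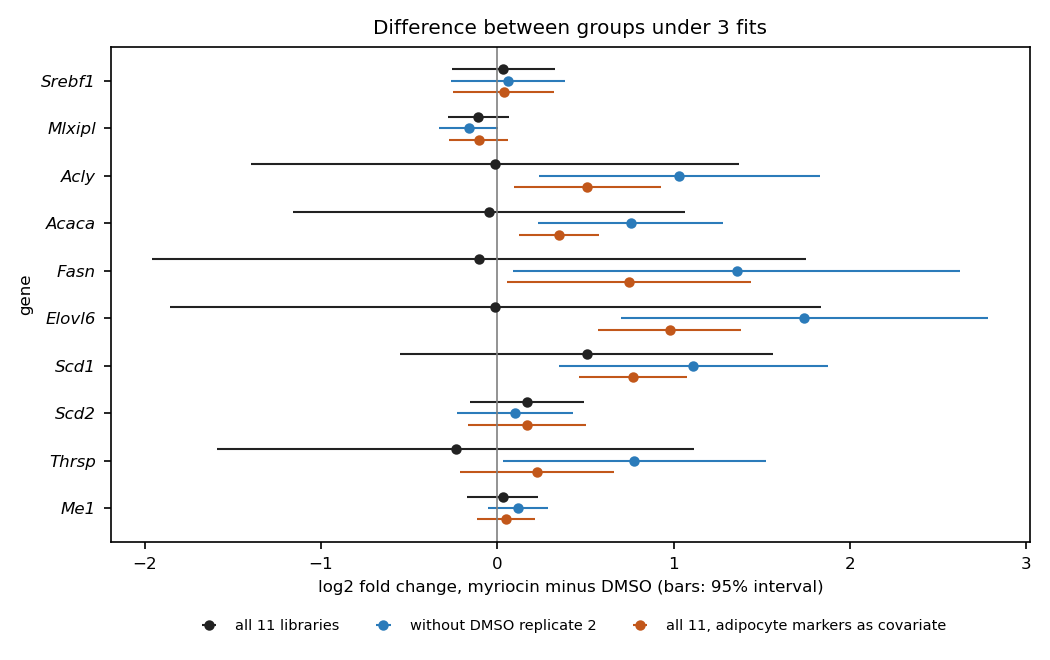
Log2 fold change, myriocin minus DMSO, of each gene with its 95% interval in 3 edgeR fits: all 11 libraries (black), without DMSO replicate 2 (blue), and all 11 libraries with the white adipocyte markers as covariate (orange). The wide black intervals of Acly, Acaca, Fasn, Elovl6, Scd1 and Thrsp include 0, and the blue ones of these 6 genes lie above it.

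Across the 11 libraries the variable genes varied together. Among Fasn, Acaca, Acly, Scd1, Elovl6 and Thrsp, the 15 pairs had Pearson's r of log2 CPM from 0.768 to 0.983 and Spearman's rho from 0.855 to 0.991. All 15 passed an adjusted permutation p of 0.05 by both measures, where adjustment ran over the 45 pairs of the 10 genes. Without DMSO replicate 2, r in these pairs was 0.708 to 0.988, and after centring each treatment group it was 0.814 to 0.994. Leaving out the 2 libraries farthest from the median of the first gene of a pair gave 0.688 to 0.989. For Fasn and Elovl6, r was 0.98 and rho 0.96, with a permutation p of 1e-05 for r, the smallest that these resamples can give, and an adjusted p of 5.625e-05. Over these libraries Elovl6 ranged from 0.692 to 24.4 CPM and Fasn from 26.9 to 876 CPM.

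Me1 moved with these 6 genes by Pearson's r, at 0.730 to 0.849, with all 6 adjusted permutation p-values at 0.0220 or lower. By rho, at 0.618 to 0.718, 2 of the 6 pairs passed. This relation rests in part on single libraries, since r was 0.222 to 0.612 without the 2 farthest. The pairs of either transcription factor gene with these 6 genes did not pass the threshold. Srebf1 had r of 0.351 to 0.438 with the 6 genes, rho of 0.373 to 0.518, and adjusted permutation p-values for r of 0.278 to 0.361. Mlxipl had r of -0.525 to -0.383, rho of -0.573 to -0.464, and adjusted permutation p-values for r of 0.181 to 0.325. These negative values were -0.202 to 0.243 without the 2 farthest libraries.

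Scd2 did not follow its paralog: its r with Scd1 was 0.24 and its rho 0.17, with an adjusted permutation p of 0.563 for r. Its r with the 6 variable genes was -0.106 to 0.24 over all libraries and 0.387 to 0.555 without DMSO replicate 2, in which it was low while they were high. The pair of Scd2 and Srebf1 had r = 0.72 (adjusted permutation p = 0.0252) and rho = 0.69 (adjusted permutation p = 0.0520). Their r was 0.76 without the 2 farthest libraries and 0.88 without DMSO replicate 2. Of all 45 pairs, 22 passed by Pearson's r and 17 by Spearman's rho, with a median r of 0.546. Without DMSO replicate 2, 16 passed by r.

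**Figure D3:**
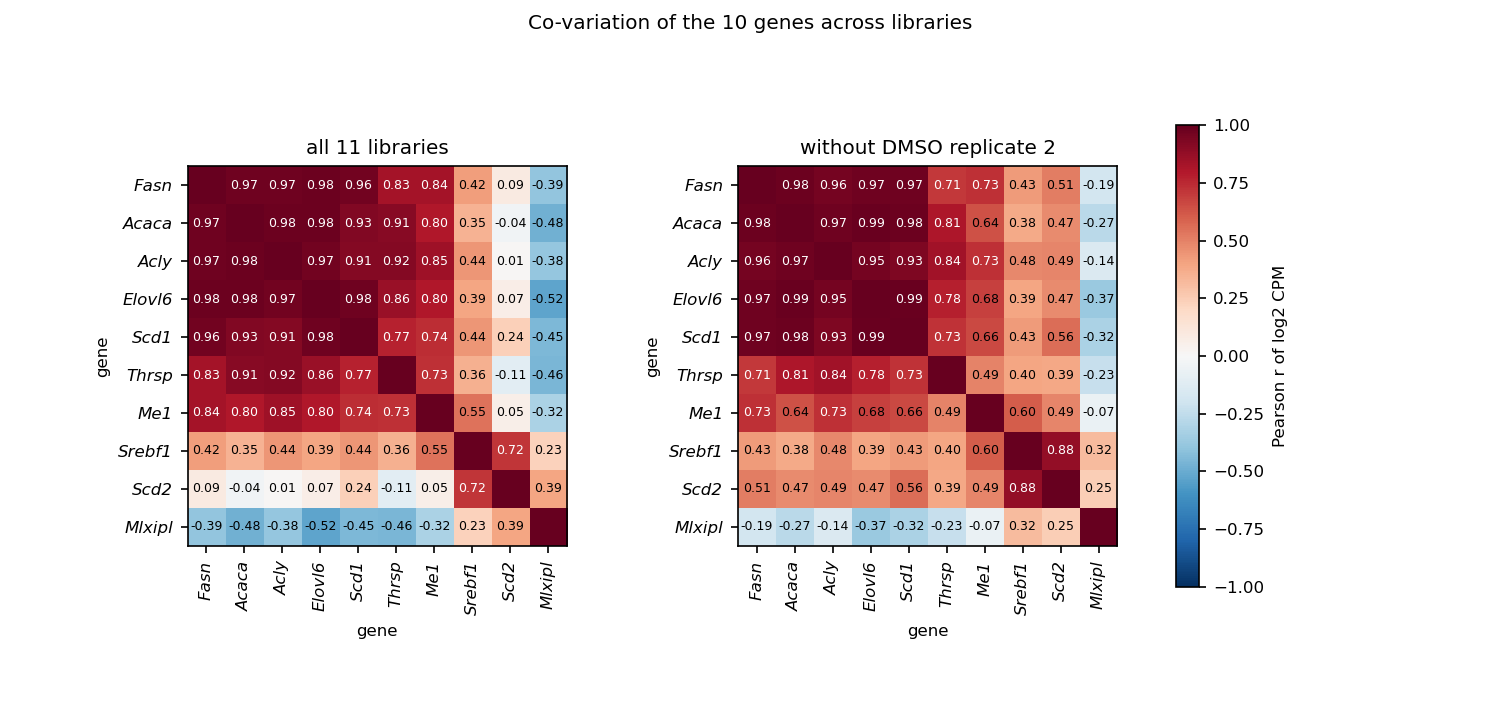
Pearson's r of log2 CPM for each pair of the 10 genes over all 11 libraries (left) and over the 10 libraries without DMSO replicate 2 (right), with red for positive and blue for negative values. The block of Fasn, Acaca, Acly, Elovl6, Scd1 and Thrsp is positive in both panels, and Scd2 and Mlxipl stand outside it.

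The 6 variable genes also moved with the white adipocyte markers, which include adiponectin (Adipoq) and perilipin 1 (Plin1). Pearson's r with the mean log2 CPM of the 10 markers was 0.94 for Acaca, 0.91 for Thrsp, 0.90 for Acly, 0.87 for Fasn, 0.87 for Elovl6 and 0.81 for Scd1. All 6 had an adjusted permutation p of 0.0350 or lower, with adjustment over the 90 relations of 10 genes and 9 marker lists. Spearman's rho was 0.764 to 0.855 for these genes, with adjusted permutation p-values of 0.1003 to 0.132, so none passed by rho. Without the 2 libraries farthest from the median of the markers, DMSO replicate 2 and myriocin replicate 4, r was 0.619 to 0.786. Adipoq itself ran from 13.1 to 42.6 CPM in the libraries other than DMSO replicate 2, where it was 94.4 CPM, and Plin1 from 9.55 to 42.8 CPM and 101 CPM. Fasn ran from 26.9 to 488 CPM without that library, or 18.2-fold. Another of the markers, Lep, the leptin gene, ran 28.1-fold, from 0.0866 CPM, below the floor, to 2.43 CPM, and neither end was DMSO replicate 2. None of the 10 adipocyte markers was at 0 in any library, and the part of fat cells in the levels of the lipogenic genes was not tested.

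Me1 had r = 0.68 with the adipocyte markers (adjusted permutation p = 0.135) and 0.05 without the 2 farthest libraries. With the 3 neutrophil markers tested, of 7 listed, Me1 had r = 0.82 (adjusted permutation p = 0.0305) and rho = 0.66 (adjusted permutation p = 0.276). This r was 0.58 without DMSO replicate 2 and myriocin replicate 4, and 0.79 without the 2 libraries farthest for the neutrophil markers. Of these markers, S100a8 fell to 0.0441 CPM, below the floor. Srebf1, with r = 0.35, Mlxipl, with r = -0.39, and Scd2, with r = -0.02, did not pass with the white adipocyte markers in the permutation test. None of the 10 genes passed with the markers of brown adipocytes, Schwann cells, hepatocytes, macrophages, endothelium, epidermis or muscle fibres. This does not make the relation particular to white fat. For the 6 variable genes, r was 0.56 to 0.77 with the 4 brown adipocyte markers tested, which leave out Ucp1 and Elovl3. These 4 did not move alike: r with Fasn was 0.81 for Cidea, 0.36 for Dio2, -0.32 for Cox8b and -0.05 for Ppara. Cox8b was at 263 CPM or more in every library, and the cells that make it were not tested. With the 3 neutrophil markers tested it was 0.66 to 0.72. The epidermal list rested on 2 tested genes.

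**Figure D4:**
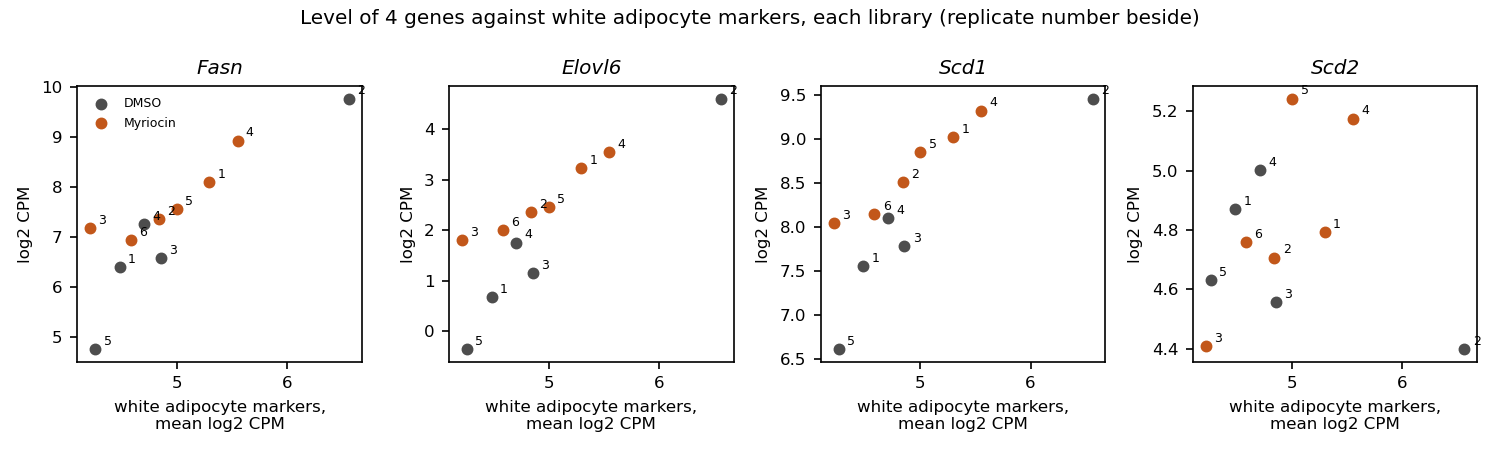
Log2 CPM of Fasn, Elovl6, Scd1 and Scd2 against the mean log2 CPM of 10 white adipocyte markers in each library, DMSO in grey and myriocin in orange, with replicate numbers beside the points. DMSO replicate 2 is at the far right of every panel, highest for Fasn, Elovl6 and Scd1 and lowest for Scd2.

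The rest of the pathway was read from 7 lists, in which 0 genes rose and 0 genes fell past an adjusted p of 0.05. Of 13 genes that control SREBP and ChREBP, 4 had a positive log2 fold change, with a median of -0.04, and 3 had one without DMSO replicate 2, with a median of -0.06. The smallest p-values were those of Nr1h3, the liver X receptor alpha, at -0.27 (SE 0.13), or -0.15 without DMSO replicate 2, and of Usf2, an E-box factor, at -0.15 (SE 0.08). Of 10 genes that supply acetyl-CoA and NADPH, 0 had a positive value and the median was -0.14. Within this list the log2 fold change was -0.41 (SE 0.35) for G6pdx, of the pentose phosphate pathway, and -0.16 (SE 0.14) for Taldo1, transaldolase. G6pdx was at 20.3 CPM in DMSO replicate 2 and at most at 8.63 CPM elsewhere, and without that library 6 of the 10 genes were positive, with a median of 0.01, and G6pdx was at 0.14 and Taldo1 at 0.0013. The mitochondrial citrate carrier gene Slc25a1, from the same list, had r = 0.95 with Fasn and ran from 6.69 to 75.6 CPM. This r was 0.89 without DMSO replicate 2 and myriocin replicate 4.

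Malonyl-CoA, the product of Acaca, also restrains the entry of fatty acids into mitochondria, and 10 genes of its control were read beside it. Mlycd, malonyl-CoA decarboxylase, which breaks it down, was at 131 ± 13.2 CPM (SD, n = 5) in the DMSO group and 106 ± 9.53 CPM (SD, n = 6) in the myriocin group. This log2 fold change of -0.31 (SE 0.08) had an adjusted p of 0.936 with edgeR, and it was -0.35 without DMSO replicate 2. Prkaa2, the catalytic AMPK subunit of muscle, was at 0.22 (SE 0.11). The 10 genes had 6 positive values and a median of 0.09. Acacb, the carboxylase that serves this control in muscle, was at 444 ± 67.3 CPM (SD, n = 5) and 420 ± 33.8 CPM (SD, n = 6), and is named here after its values were seen.

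Of 17 other elongases and desaturases, 11 were abundant enough to test, 4 were positive and the median was -0.12. The direction turned without DMSO replicate 2, with 7 of 11 positive and a median of 0.07. The smallest p-values were those of Elovl5 at -0.18 (SE 0.09), or -0.11 without that library, and Hacd1, a dehydratase of the elongation cycle in muscle, at 0.23 (SE 0.13). Scd3 and Scd4 were not tested and stayed at or below 0.328 CPM. Mitochondrial fatty acid synthesis, a separate pathway that makes the precursor of lipoic acid, had 0 positive values in 6 genes and a median of -0.08, with Acsf3 at -0.12 and Mecr at -0.13, or -0.05 without DMSO replicate 2. Glycerolipid assembly had 2 positive values in 11 genes and a median of -0.21, led by Gpat3 at -0.44 (SE 0.15) and Acsl1 at -0.21 (SE 0.09). In the fit without DMSO replicate 2, 4 of the 11 were positive and the median was -0.02, with Gpat3 at -0.30 and Acsl1 at -0.18. Among 6 targets of the liver X receptor, 4 were positive and the median was 0.06, with Mylip at -0.21 (SE 0.08) and Abca1 at 0.32 (SE 0.21). The lowest adjusted p in these 7 lists was 0.936.

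The genes outside the list of 10 whose log2 CPM was most like that of a lipogenic gene over the 11 libraries were sought among 11685 genes of at least 1 CPM on average, with predicted and Riken genes left out. Of these, Fasn was most like Aacs (r = 0.96), which encodes acetoacetyl-CoA synthetase, Adora1 (r = 0.96), an adenosine receptor, and Slc25a1 (r = 0.95). In all, 22 of these genes, or 0.188%, had r above 0.9 with Fasn. Outside the list, Acaca was most like Prkar2b, Tkt and Aacs (r = 0.97 each), and Acly most like Slc25a1 (r = 0.97), Tkt (r = 0.97) and Pygl (r = 0.96). Among the nearest genes of both Elovl6 and Scd1 were Adora1 (r = 0.95 with each) and Cdsn (r = 0.94 with Elovl6 and 0.92 with Scd1). Thrsp was nearest to Tmem179, Pgd and Slc25a10 (r = 0.96, 0.96 and 0.95). Srebf1 was nearest to Twist1 (r = 0.90), Actg1 and Ccdc146, and Mlxipl to Npepps (r = 0.93), Mtcl1 and Mllt6. Scd2 was nearest to Cacna1c (r = 0.88), Nol4l and Fam220a. Me1 was nearest to Mafa (r = 0.92), Plscr1 and Actn3, the alpha-actinin of fast fibres. Without DMSO replicate 2 and myriocin replicate 4, r in these pairs ran from 0.74, for Me1 with Actn3, to 0.95, for Acaca with Prkar2b. For Me1 with Plscr1 it was 0.77, against 0.90 with all libraries, and for Scd2 with Cacna1c it was 0.94, against 0.88.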

How the data were processed

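The authors deposited raw counts of reads in Ensembl genes, 1 column for each of 11 quadriceps libraries, made from total RNA by DNBseq sequencing per the labels' protocols. The submitters' processing notes name STAR 2.5.2b, HTSeq 0.6.0 and GRCm38. The sources used here do not give the strand setting or the annotation release. Of 53470 lines, 5 were HTSeq summary lines, holding 24.8% to 28.2% of the reads of a library, and were left out. Symbols and coordinates came from GENCODE M21, which matched 53360 of 53465 genes. Of the columns, 0 were left unassigned.

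Differences were fitted in edgeR 4.0.16 (R 4.3.3) (filterByExpr by group with a minimum count of 10 and a total of 15, TMM scaling, robust quasi-likelihood F test, treatment as the single factor), with Benjamini-Hochberg adjustment over the 14117 genes tested and a threshold of 0.05. CPM values are TMM-scaled, and log2 CPM has a prior count of 2. SE was calculated back from the F statistic. Correlations used 100000 label permutations, 2-sided, and log ratios the exact test over all 462 assignments. The procedure was tested on simulated counts.

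The genes and the pathway and marker lists were chosen with earlier results of these data known. Named were all 10 genes, the 2 genes of smallest p in each pathway list, and the 3 genes most correlated with each of the 10, of which 1 gene is not reported here. Acacb, Slc25a1 as a list gene, Scd3, Scd4 and the single markers were named after their values were seen. Alternatives were DESeq2 1.42.0, limma-voom 3.58.1, other scalings and filters, leaving out libraries, replicate number as a block, and the adipocyte covariate. The fits without DMSO replicate 2 and myriocin replicate 4 together, and with the covariate but without DMSO replicate 2, were added after seeing the data. The replicate numbers do not pair the samples. Depth was alike in all libraries, so precision was set by the spread between them. Intervals and floors do not cover PCR copies.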

Additional observations from a re-analysis of the deposited data

Results flagged for a closer look

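In the DMSO group, replicate 2 lay farther from its nearest neighbour than Dixon's critical value allows for 5 libraries in 6 of the groups of values examined. Its level was 875.8 CPM for Fasn, 109.7 CPM for Acaca, 146.3 CPM for Acly, 24.37 CPM for Elovl6 and 105.7 CPM for Thrsp, and its white adipocyte markers summed to 2969 CPM. In all, 26 groups of values were examined, on the CPM scale except for the log2 ratios. Chance marks about 1 in 20 only where values are normally distributed, which CPM values need not be. The CPM scale stretches high values, and the log2 CPM values were not examined in this way. All 6 marked values belong to this 1 library, so they are not independent of each other. Scd1, at 705 CPM in the same library, did not pass the critical value. No myriocin library was marked for any of the 10 genes.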

How the results depend on the processing

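No gene of the list passed the adjusted threshold in any of the 24 alternatives run for each, the smallest adjusted p being 0.345 for Elovl6 without DMSO replicate 2 and myriocin replicate 4. The number of genes past the threshold was 0 in every alternative except DESeq2, which called 6, with 659 at an unadjusted p under 0.05, and gave no p for Fasn and Acly. Members of the list with a positive log2 fold change numbered 4 of 10 in the reported fit, 2 with library totals only, 9 with limma-voom, 9 with the adipocyte covariate, 9 without DMSO replicate 2 and myriocin replicate 4, 7 with the covariate and without DMSO replicate 2, and 2 to 9 when 1 library was left out.

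The direction turned for these values, given as log2 fold changes. With limma-voom they were 0.73 for Fasn, 0.285 for Acaca, 0.43 for Acly, 0.98 for Elovl6 and 0.18 for Thrsp. With the covariate they were 0.75, 0.35, 0.51, 0.98 and 0.22 in the same order, and without DMSO replicate 2 and myriocin replicate 4 they were 0.99, 0.61, 0.75, 1.49 and 0.55. With the covariate and without DMSO replicate 2 they were 0.80, 0.45, 0.62, 1.14 and 0.37, with Srebf1 at -0.043 and Scd2 at -0.062. With library totals only, Srebf1 was at -0.0038 and Me1 at -0.011. Elovl6 was at 0.011 with DESeq2, and Me1 at -0.013 without the 3 libraries richest in albumin transcripts. Leaving out those 3 also took Scd1 from 0.51 to 0.032 and the difference in the Scd1 to Scd2 log2 ratio from 0.59 to 0.074, and Fasn to -0.97, Acaca to -0.56, Acly to -0.70, Elovl6 to -0.795 and Thrsp to -0.82. The cause of these turns was not tested.

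Leaving out 1 library at a time, the log2 fold change ran from -0.068 to 0.13 for Srebf1, from -0.47 to 1.36 for Fasn, from -0.26 to 0.76 for Acaca, from -0.30 to 1.03 for Acly, from -0.30 to 1.74 for Elovl6, from -0.47 to 0.78 for Thrsp from -0.019 to 0.12 for Me1, from -0.16 to -0.051 for Mlxipl, from 0.28 to 1.11 for Scd1 and from 0.084 to 0.25 for Scd2. It was highest without DMSO replicate 2 for Fasn, Acaca, Acly, Elovl6, Thrsp and Scd1, and for Scd1 lowest without DMSO replicate 5. The log2 ratio of Scd1 to Scd2 differed by 0.28 to 1.05, and by 1.05 without DMSO replicate 2. Pairs of genes past the threshold by Pearson's r numbered 16 to 22, and 11 without DMSO replicate 2 and myriocin replicate 4.

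Replicate numbers did not pair the samples: libraries of the same number had correlated deviations of -0.132 to 0.0866. With replicate number as a block over 10 libraries, 9 genes were positive, with Fasn at 1.03, Acaca at 0.40, Acly at 0.61, Elovl6 at 0.96 and Thrsp at 0.30, and no call changed. Without the block over these 10 libraries, 8 were positive, with Fasn at 0.027, Acaca at 0.026, Acly at 0.082 and Elovl6 at 0.099. The median log2 fold change of all genes moved from -0.012 to -0.048 with library totals only. Elovl6 at 0.692 CPM in DMSO replicate 5 rests on 15 reads.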
